A study of Rattus norvegicus with 4 samples.

Results

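The S100 family is a group of small calcium-binding proteins, and 9 of its genes were described here in mammary cancers of the rat: S100a1, S100a4, S100a6, S100a8, S100a9, S100a10, S100a11, S100b and S100g. The members were taken by name, as every probe set whose platform annotation gave only 1 of these genes. Each had a single probe set, so they are 9 of the 14217 genes that could be named on the array. Transcripts were measured in 4 cancers on 1 array each. The hosts were female rats of the outbred Sprague-Dawley stock that had received a single whole-body dose of 0.5 Gy of carbon ions at 7 weeks of age (beam energy 290 MeV/u, spread-out Bragg peak of 6 cm). All animals had been given an AIN-76A diet with 23.5% corn oil from an age of 9 weeks. The 4 cancers form 1 group, and unirradiated or normal tissue was not analysed here, so no value below is an effect of radiation or diet. The labels do not say whether each cancer came from a separate rat.

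Most S100 proteins work as pairs, and each chain holds calcium-binding loops called EF-hands. In most members, binding calcium opens a surface through which the pair grips its targets, such as annexins and myosin. S100a10 differs, since its loops no longer bind calcium and it grips its partner without it. S100g differs too, as a single-chain protein that buffers calcium. Some members are also released from cells and act as danger signals on receptors such as the receptor for advanced glycation end products (Ager) and Toll-like receptor 4 (Tlr4). In tumours, S100a8 and S100a9 are known as products of neutrophils and other myeloid cells, S100a4 as a gene of motile and stromal cells, and S100a6, S100a10 and S100a11 as genes of many epithelia.

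Signals are log2(intensity + 16), the form used for all levels below, and a difference of 1 is 2-fold for bright probe sets and understates the change of dim ones. A gene is called expressed when its 4-tumour mean was 7.81 or more, which is the median over the means of all probe sets. With 1 array per tumour there is no replicate error for a single tumour and no test, and an SD is the spread over the 4 tumours. Signals of different probe sets are not on a shared scale, so bright and dim below describe the signal of a probe set on the array and not the amount of transcript of one gene against another. Of the markers of the labelled tissue, 11 of 12 luminal epithelial genes and 10 of 11 basal and myoepithelial genes were expressed. Of all 14217 genes 9403 were expressed, as were 13 of 14 macrophage and 10 of 11 fibroblast genes. These counts therefore do not identify the tissue. Median signals lay between 201.8 and 221.9 on the 4 arrays.

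The family divided into members that were bright and nearly level, members that were bright or moderate and differed between tumours, and members that were dim. Of the 9, 5 were expressed: S100a4, S100a6, S100a10, S100a11 and S100b. Of these, 3 (S100a4, S100a6 and S100b) had a highest tumour at least 2-fold above the lowest, called a 2-fold range below, against 12.4% of all 9403 expressed genes. No expressed member had a 4-fold range, against 2.42% of expressed genes, although S100a4 fell just short with a range of 1.99. The median SD of the 5 was 0.48, and that of all expressed genes was 0.21. The 4 members under the filter all had a 2-fold range, and S100a8 and S100a9 had a 4-fold range. Over all 9, 7 had a 2-fold and 2 a 4-fold range, against 21.1% and 3.99% of all 14217 genes, and 5 were highest in tumour 1, against 29.9%. Dim genes vary more on these arrays, with 38.1% of the genes below the filter at a 2-fold and 7.04% at a 4-fold range. Without tumour 2 or tumour 3 the mean of S100a9 passed the filter, and it then counted as an expressed member with a 4-fold range. Only tumour 1 reached the filter level for this gene, so that mean and that range both rest on tumour 1.

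**Figure D1:**
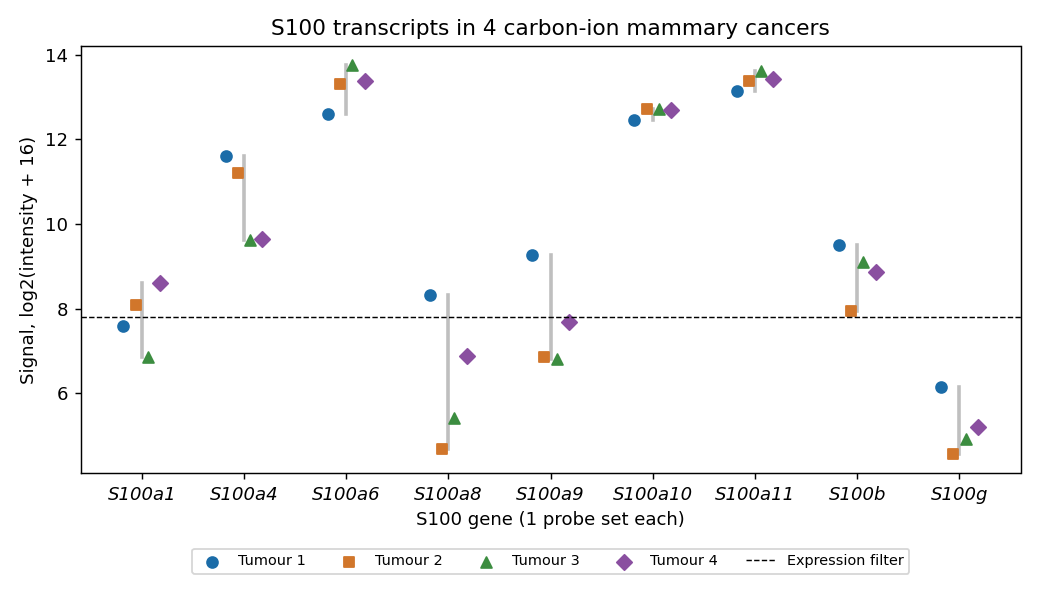
Signal of each S100 gene, as log2(intensity + 16), in the 4 tumours; each symbol is 1 tumour on 1 array, the grey bar spans lowest to highest and the dashed line is the expression filter at 7.81. S100a8 and S100a9 stand highest in tumour 1, S100a4 separates tumours 1 and 2 from tumours 3 and 4, and S100a10 spans 0.25.

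**Figure D2:**
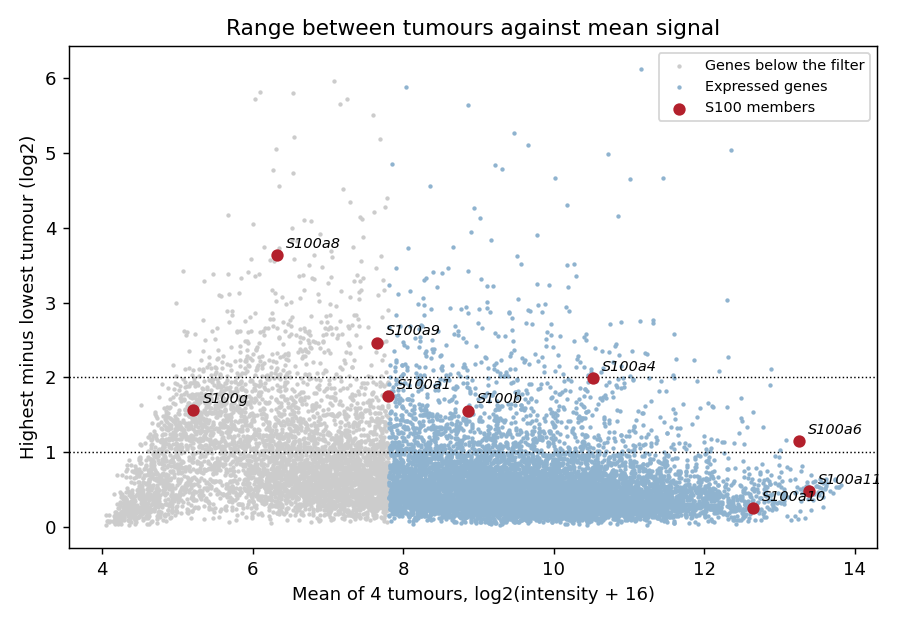
Range between the highest and the lowest tumour (log2) against the mean over 4 tumours, log2(intensity + 16), with 1 point per gene; blue genes are expressed, grey genes are below the filter, red points are the S100 members and dotted lines mark 2-fold and 4-fold. S100a8 and S100a9 lie above the upper line on the dim side, and S100a10 and S100a11 lie low at the bright end.

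The promoter windows below are shown for the 2 members of widest range and the 2 brightest members among the 5 of 9 with an entry in the RefSeq promoter table (GRCr8). Each is the 250 bases before the annotated start, 5′ to 3′ on the strand of the gene. Capitals mark matches on either strand to a TATA box (TATAAA), a GC box (GGGCGG), an AP-1 site (TGANTCA) or a C/EBP site (TTNNGCAA).
S100a9, chr2:178490623-178490872, minus strand: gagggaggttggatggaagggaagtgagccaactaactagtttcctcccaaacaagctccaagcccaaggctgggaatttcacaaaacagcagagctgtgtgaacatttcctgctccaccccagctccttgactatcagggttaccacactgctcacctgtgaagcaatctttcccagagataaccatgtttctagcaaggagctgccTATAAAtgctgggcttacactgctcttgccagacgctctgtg
S100a4, chr2:178388279-178388528, plus strand: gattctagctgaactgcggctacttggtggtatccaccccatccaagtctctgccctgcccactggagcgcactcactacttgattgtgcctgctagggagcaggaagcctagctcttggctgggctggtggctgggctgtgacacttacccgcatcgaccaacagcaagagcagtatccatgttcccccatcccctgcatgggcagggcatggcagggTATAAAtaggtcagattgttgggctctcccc
S100a11, chr2:181874882-181875131, plus strand: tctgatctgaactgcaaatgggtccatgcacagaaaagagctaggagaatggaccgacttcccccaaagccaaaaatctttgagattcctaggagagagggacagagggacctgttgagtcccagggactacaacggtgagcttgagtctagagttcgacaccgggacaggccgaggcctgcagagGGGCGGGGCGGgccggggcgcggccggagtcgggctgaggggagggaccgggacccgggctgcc
S100a6, chr2:178398287-178398536, plus strand: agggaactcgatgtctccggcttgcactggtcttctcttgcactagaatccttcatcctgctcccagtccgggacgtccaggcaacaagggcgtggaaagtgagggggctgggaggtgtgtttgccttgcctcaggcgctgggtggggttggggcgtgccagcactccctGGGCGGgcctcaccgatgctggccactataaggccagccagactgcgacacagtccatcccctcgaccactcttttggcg

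The windows of S100a9 and S100a4, the pair of wider range among these, each held a TATA box, starting 42 and 31 bases before the start. This motif was present in 12.9% of 33469 windows of the same length. The windows of S100a11 and S100a6, bright in all tumours, held GC boxes, found in 30.5% of windows. S100a11 had 2 that overlap by a base, and S100a6 had 1 that begins 80 bases before the start. The G and C content was 50.4% for S100a9, 57.6% for S100a4, 62.0% for S100a11 and 62.4% for S100a6. None of these windows held the AP-1 or the C/EBP letters, found in 6.34% and 9.22% of all windows, and the window of S100b held no match to any of the motifs. Only exact letters were sought, so a near match is not marked. The windows were picked by range and brightness, so they give no test of a link between motif and either trait. A match of letters is a description of the sequence and not a shown binding site.

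S100a8 and S100a9 encode the chains of calprotectin, a danger signal stored in neutrophils. Both were highest in tumour 1, second in tumour 4 and low in tumours 2 and 3. S100a8 measured 8.32 in tumour 1, 4.68 in tumour 2, 5.43 in tumour 3 and 6.88 in tumour 4, with an SD of 1.61. As intensities these were 304, 9.71, 27.2 and 101.5. S100a9 measured 9.27, 6.85, 6.80 and 7.70 in tumours 1 to 4, with an SD of 1.15 and intensities of 602, 99.6, 95.8 and 191.4. Only tumour 1 reached the filter level for either gene. The S100a8 intensities in tumours 2 and 3 were the dimmest of the pair, and the size of its differences is uncertain.

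Tumour 1 exceeded the nearest tumour by 1.44 for S100a8 and by 1.58 for S100a9. A lead of at least 2-fold over each other tumour was held by tumour 1 in 3.28% of genes below the filter. Between tumours 1 and 2 the difference was 3.64 for S100a8 and 2.42 for S100a9. Tumour 4 exceeded tumour 2 by 2.19 for S100a8 and by 0.84 for S100a9. The range of S100a9 rested on tumour 1 and was 0.89 without it, while that of S100a8 was still 2.19.

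Some neutrophil transcripts shared the highest and the second tumour of this pair, as did the summed macrophage and lymphoid signals given below. Of 10 neutrophil genes with a probe set, 6 were highest in tumour 1, where 33.4% of all genes below the filter were highest, and only Lcn2 was expressed. Csf3r, the receptor for granulocyte colony-stimulating factor, measured 7.50, 5.04, 4.75 and 6.31 in tumours 1 to 4. Mmp9, a gelatinase stored in neutrophil granules, measured 7.59, 5.65, 4.73 and 6.15. For these genes tumour 1 was highest and tumour 4 second, as for S100a8 and S100a9. Il1b, an inflammatory cytokine, measured 8.60, 7.20, 6.82 and 7.75, also with tumour 1 highest and tumour 4 second. The other 7 did not have tumour 1 highest and tumour 4 second. Cxcr2, a chemokine receptor of neutrophils, was highest in tumour 4 at 7.16, and Camp, an antimicrobial peptide of granules, stayed between 4.23 and 4.65. Lcn2, which epithelium also makes, lay between 13.49 and 13.76 and gave most of the summed signal of the list. The other 9 genes summed to intensities of 1065, 465, 349 and 641 in tumours 1 to 4, and with Lcn2 the sums lay between 12010 and 14217. No neutrophil gene was at 0, and 8 of the 18 genes listed were not analysed here.

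Macrophage transcripts were also highest in tumour 1, for 12 of 14 genes against 29.9% of all genes. The summed intensity of the list was 29249, 17621, 11674 and 17991 in tumours 1 to 4, the same order of tumours as S100a9. Of the 14, 12 were lowest in tumour 3, against 25.8% of all genes. C1qb, a complement chain made by macrophages, measured 11.18, 10.14, 8.88 and 10.06. S100a9 was lowest in tumour 3 too, 0.05 below tumour 2, and S100a8 was lowest in tumour 2. Epidermal genes, listed because skin also makes S100a8 and S100a9, were all below the filter, with summed intensities of 1166, 546, 661 and 605. Of 8 epidermal genes, 4 were highest in tumour 1, against 33.4% of genes below the filter. Lymphoid genes summed to 3413, 1115, 709 and 2980 in tumours 1 to 4, also with tumour 1 highest and tumour 4 second. Of 8 lymphoid genes, 4 were highest in tumour 1 and 3 in tumour 4, against 29.9% and 24.5% of all genes. Of these 8, 7 were lowest in tumour 3, against 25.8%. Endothelial genes summed to 2388, 1494, 2480 and 1665, with 1 of 6 highest in tumour 1, against 29.9%. In tissue pieces such as these, fewer cells of a type and less RNA per cell cannot be told apart. The part of any of these cell types in the S100a8 and S100a9 values was not tested.

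**Figure D3:**
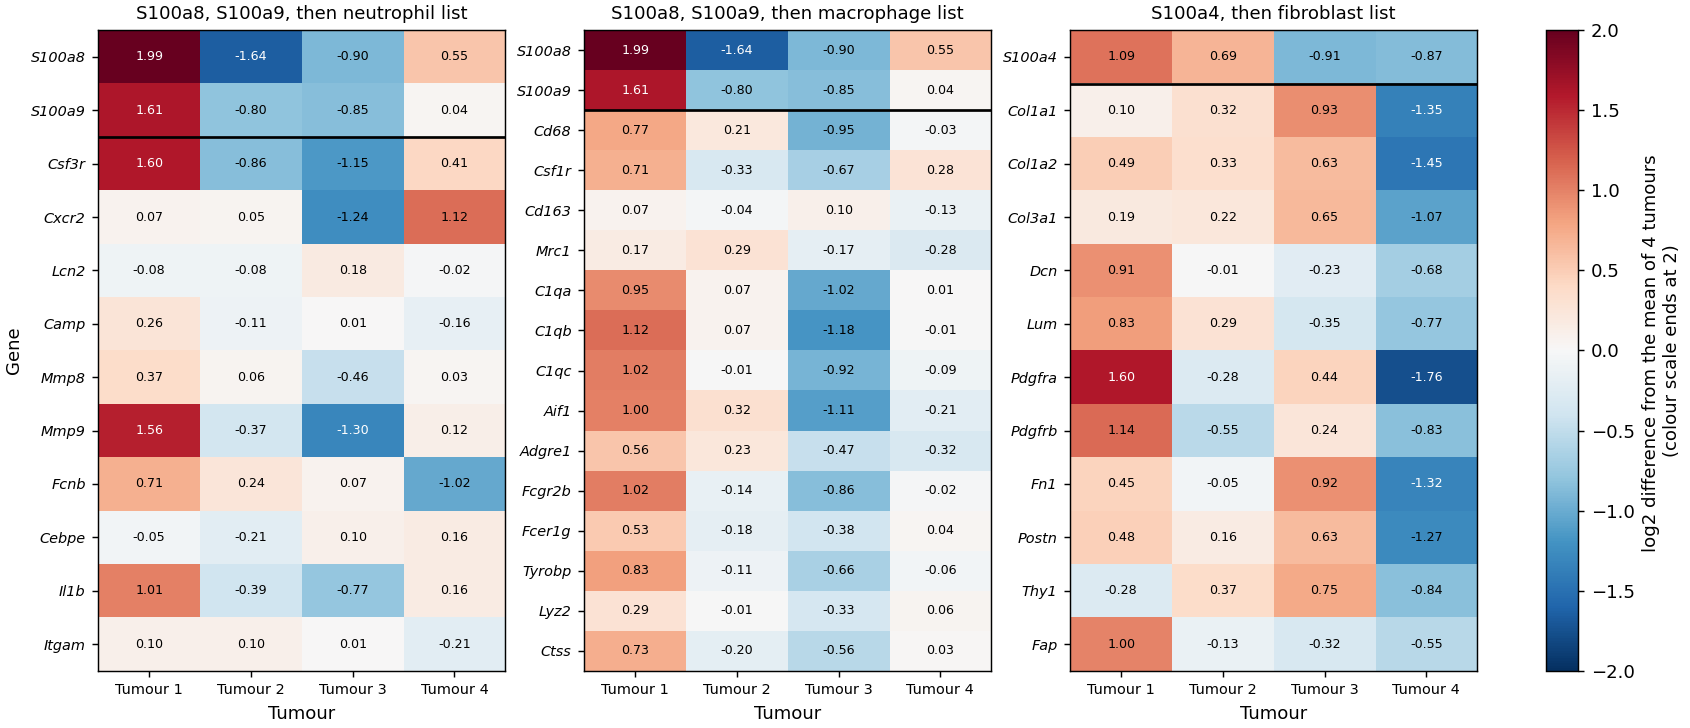
Difference of each gene from its own mean over the 4 tumours (log2, colour and printed value), with S100a8 and S100a9 above the neutrophil list (left) and the macrophage list (middle), and S100a4 above the fibroblast list (right). Csf3r and Mmp9 follow the order of S100a8 in tumours 1 and 4, and the fibroblast genes are lowest in tumour 4 while S100a4 is equally low in tumour 3.

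Of 14 inflammation genes listed beside S100a8 and S100a9, 7 were expressed. Of these, 3 had a 2-fold range, against 12.4% of all expressed genes. Of the 7, 3 were highest in tumour 1, against 28% of expressed genes, 2 in tumour 3 and 2 in tumour 4. Cxcl1, a neutrophil-attracting chemokine, measured 10.97, 9.51, 9.13 and 9.55. Nos2, the inducible nitric oxide synthase, measured 8.85, 8.57, 7.21 and 7.71, with tumour 2 second. Saa3, an acute-phase protein, went another way, with its highest value of 9.86 in tumour 3 and its lowest of 6.65 in tumour 4. Of 11 receptor genes for extracellular S100 proteins, 7 were expressed and none of these had a 2-fold range, a count near what the 12.4% of all expressed genes would give. Tlr4 lay between 8.03 and 8.19, and its partner Ly96 between 8.28 and 9.22. Bsg (basigin), a receptor of S100a9, was lowest in tumour 1 at 11.77 and lay between 12.39 and 12.70 elsewhere. Ager was below the filter, between 5.59 and 7.63, with a 4-fold range, and was lowest in tumour 4.

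Genes whose 4-tumour profile came nearest to each member were ranked by the root-mean-square (RMS) difference of profiles centred on their own means. They were sought among expressed genes of nearly equal or larger range. For S100a9, out of 247 such genes, these were Fst (follistatin) at an RMS difference of 0.19, Dmkn (dermokine) at 0.19 and Robo2 at 0.21. For S100a8, out of 44, they were Krt79, a keratin, at 0.41, Timp4, a protease inhibitor, at 0.51 and Inhba, an activin subunit, at 0.59. All profiles rest on the same 4 arrays, so the rankings describe likeness only.

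S100a4, also called metastasin, binds non-muscle myosin IIA and is made by stromal and immune cells and by some carcinoma cells. It measured 11.61, 11.21, 9.61 and 9.65 in tumours 1 to 4 (SD 1.04), which were intensities of 3106, 2349, 768 and 787. Tumours 1 and 2 were high and tumours 3 and 4 low, with 1.56 between tumours 2 and 4, the nearest values of the pairs. Within the pairs the differences were 0.40 and 0.04. The range remained 1.59 without tumour 1. Myh9, the heavy chain of that myosin, lay between 12.33 and 12.63 and was lowest in tumour 1.

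Fibroblast transcripts shared part of the pattern of S100a4. All 11 fibroblast genes were lowest in tumour 4, where S100a4 was low, against 23.3% of all genes. Of the 11, 5 were highest in tumour 1, where S100a4 was highest, and 6 in tumour 3, where S100a4 was low. The shares of all genes highest there were 29.9% and 22.4%. The summed intensity of the 11 was 55008, 42574, 54886 and 17093 in tumours 1 to 4. Col1a1, the main fibrillar collagen chain, measured 12.42, 12.65, 13.25 and 10.98. Vim (vimentin), an intermediate filament of mesenchymal cells, measured 12.67, 12.20, 12.32 and 11.51. Macrophage genes had their highest sum in tumour 1 and their lowest in tumour 3, as S100a4 did. Their sums in tumours 2 and 4 were 17621 and 17991, and S100a4 was higher by 1.56 in tumour 2 than in tumour 4. The part of either cell type in the S100a4 values was not tested. The nearest profiles among 498 genes were RT1-Ba, an MHC class II chain, at an RMS difference of 0.23, Mfap5, a microfibril protein, at 0.25 and Dock11 at 0.28.

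S100a6, S100a10 and S100a11 were bright in all 4 tumours, each above the 99th percentile of probe sets, and all 3 were lowest in tumour 1. S100a6 (calcyclin) measured 12.60, 13.30, 13.74 and 13.38, a range of 1.15. S100a10, the p11 chain that binds annexin A2 and plasminogen, measured 12.47, 12.72, 12.71 and 12.70, so that tumours 2 to 4 lay within 0.02 of one another. S100a11, a partner of annexin A1, measured 13.13, 13.38, 13.61 and 13.43. The lowest place fell to tumour 1 in 36.2% of expressed genes. No saturation flag was used here, so a loss of contrast at the bright end was not tested. The highest signal on any array was 17928, and S100a6 reached an intensity of 13710 in tumour 3. With the arrays quantile-normalised, S100a6 no longer had a 2-fold range, and without tumour 1 its range was 0.45. RefSeq assembly GRCr8 lists 5 pseudogenes and 2 like genes named after S100a11 and 1 pseudogene named after S100a10, and signal from such copies cannot be separated here.

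Luminal epithelial genes were low in the same tumour. Of 11 expressed luminal genes, 10 were lowest in tumour 1, against 36.2% of expressed genes. The median of tumour 1 minus the mean of the rest was -0.76. The summed intensity of the list was 35109 in tumour 1 against 61918 to 72014 elsewhere. Krt18, a keratin of luminal cells, measured 11.97, 12.89, 13.30 and 12.95, the order also seen for S100a6. For S100a6, S100a10 and S100a11 the difference of tumour 1 from the mean of the others was -0.88, -0.24 and -0.34. With the arrays quantile-normalised these differences were -0.68, -0.10 and -0.08, and the range of S100a11 was 0.12 in place of 0.48. The part of luminal cell content in these values was not tested. The nearest profile to S100a6 among 2794 genes was Lama5, a laminin chain of basement membranes, at an RMS difference of 0.015, then Tmem250 at 0.026 and Mrm3 at 0.031.

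Of 23 measured genes of S100 binding partners 21 were expressed, and 3 of them had a 2-fold range and 1 a 4-fold range. These counts are near the shares of all expressed genes, 12.4% and 2.42%. Anxa2, the partner of S100a10, measured 12.68, 12.48, 12.55 and 12.95, and Anxa1, the partner of S100a11, measured 13.04, 13.06, 13.51 and 13.29. Cacybp, the calcyclin-binding protein, had a mean of 11.29 and an SD of 0.20. The gene with the 4-fold range was Gfap, a glial filament bound by S100b, at 10.07 in tumour 1 and between 6.84 and 7.26 elsewhere. Among genes of plasminogen activation, which S100a10 promotes at the cell surface, 3 of 6 were expressed. Of the 3, 1 had a 2-fold range, Plau (urokinase), against 12.4% of expressed genes. Plau measured 10.61, 9.13, 8.89 and 9.40, and its counterpart Plat, tissue plasminogen activator, lay between 10.54 and 11.03.

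S100b, best known from glia and also made by fat and cartilage cells, measured 9.51, 7.95, 9.10 and 8.87 in tumours 1 to 4 (SD 0.66). Tumour 2 stood below the others, and without it the range fell from 1.56 to 0.63. None of the lists of its usual cell types had its order in summed intensity. Of 7 Schwann and glial genes 5 were expressed. Of the 7, 4 were highest in tumour 2, where S100b was lowest, against 23.2% of all genes. The 1 gene of this list that was highest in tumour 1, as S100b was, is Gfap, whose values are given above. The summed intensity of the 7 lay between 5106 and 6067. Sox10, a transcription factor of glia that mammary epithelium also makes, lay between 10.97 and 11.46. Adipocyte genes summed to 4308 in tumour 2 and to between 2916 and 3359 elsewhere. Of 9 adipocyte genes, 5 were highest in tumour 2, against the same 23.2%. Of 5 cartilage genes 1 was expressed, Col2a1, between 10.02 and 10.81. The part of these cell types was not tested. The nearest profiles among 1045 genes were Prkrip1 at an RMS difference of 0.078, Ankh, a pyrophosphate transporter, at 0.095 and Efna5, an ephrin, at 0.097.

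S100a1, known from heart and skeletal muscle where it regulates calcium release, had a mean of 7.79, just under the filter. It measured 7.59, 8.09, 6.87 and 8.62 in tumours 1 to 4 (SD 0.74), highest in tumour 4 and lowest in tumour 3. Of 12 striated muscle genes 2 were expressed. Their summed intensity lay between 6190 in tumour 3, where S100a1 was lowest too, and 6586 in tumour 2. Of the 12, 5 were lowest in tumour 3 and 3 highest in tumour 4, against 25.8% and 24.5% of all genes. Basal and myoepithelial genes were lowest in tumour 3, as S100a1 was, in 7 of 10 expressed cases, against 21.1% of expressed genes. Of the 10, 4 were highest in tumour 4 and 5 in tumour 1, against 21.1% and 28%. In tumour 1 S100a1 was lower than in tumours 2 and 4. Summed intensities of the list were 43667, 36495, 27735 and 43512 in tumours 1 to 4. Myh11, the smooth muscle myosin, measured 9.91, 10.60, 9.26 and 11.50, the order of S100a1. Col17a1, a hemidesmosome collagen of basal cells, was among the nearest profiles at an RMS difference of 0.12, after Dxo at 0.11 and Harbi1 at 0.12, out of 750 genes. The part of myoepithelial content in the S100a1 values was not tested.

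S100g, or calbindin-D9k, carries calcium through gut and uterine epithelium and is a known target of vitamin D and oestrogen. Its intensities of 54.7, 7.91, 14.4 and 21.1 in tumours 1 to 4 were under the filter in every tumour, and log2 values were 6.14, 4.58, 4.93 and 5.21. Tumour 1 was highest, and its range of 1.56 became 0.63 without that tumour and 2.64 with a pseudocount of 1, so the range of so dim a probe set depends on the scale. The nearest expressed profiles among 1034 genes were Insig1 at an RMS difference of 0.072, Antxr1 at 0.092 and Cebpd at 0.10. Vitamin D and calcium transport genes summed to 3551, 2770, 2523 and 2967 in tumours 1 to 4, with tumour 1 highest and tumour 4 second as for S100g. Of the 12, 5 were highest in tumour 1, against 29.9% of all genes. They were lowest in tumour 2, as S100g was, in 5 cases and in tumour 3 in 7, against 20.6% and 25.8%. Of the 12, 6 were expressed and 1 of these had a 2-fold range, against 12.4% of expressed genes. It was the calcium buffer Calb2, with 8.30, 7.46, 7.80 and 8.49. Vdr, the vitamin D receptor, lay between 8.37 and 8.79, and Trpv6, the epithelial calcium channel, between 7.71 and 8.42. Of 7 expressed oestrogen and progesterone response genes, 5 had a 2-fold range and 4 of these a 4-fold range. The shares of all expressed genes were 12.4% and 2.42%. In tumour 1, where S100g was highest, 4 of the 7 were lowest, against 36.2% of expressed genes. Pgr, the progesterone receptor, measured 8.11 in tumour 1 and between 9.62 and 10.82 elsewhere. The part of vitamin D or oestrogen in the S100g values was not tested.

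Of 8 further genes carrying the S100 name (1 of them, S100pbp, encodes a binding protein), 5 were expressed. None of the 8 had a 2-fold range on its brightest probe set. For the 5 expressed this is near the 12.4% share of all expressed genes. The median SD of the 5 was 0.13, and that of all expressed genes was 0.21. S100a14 and S100a16 are epithelial members. S100a14 measured 11.03, 11.59, 11.62 and 11.56, and its other probe set was also lowest in tumour 1, at 10.61 against 11.41 to 11.51. S100a16 measured 12.28, 12.48, 12.54 and 12.54. S100a3 lay between 8.71 and 8.99 and S100a13 between 8.42 and 8.72. S100a5, S100a7l2 and S100vp were dim throughout, with intensities of at most 10.2, where the added 16 narrows any range. The probe sets of S100pbp disagreed, with ranges of 0.09 and 1.36. Among other calcium sensors 14 of 19 were expressed and 1 of these had a 2-fold range, near the 12.4% share of all expressed genes. It was the calmodulin-like gene Calml3, at 10.64, 8.88, 8.70 and 9.64. Of the 14, 9 were lowest in tumour 1, against 36.2% of expressed genes.

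**Figure D4:**
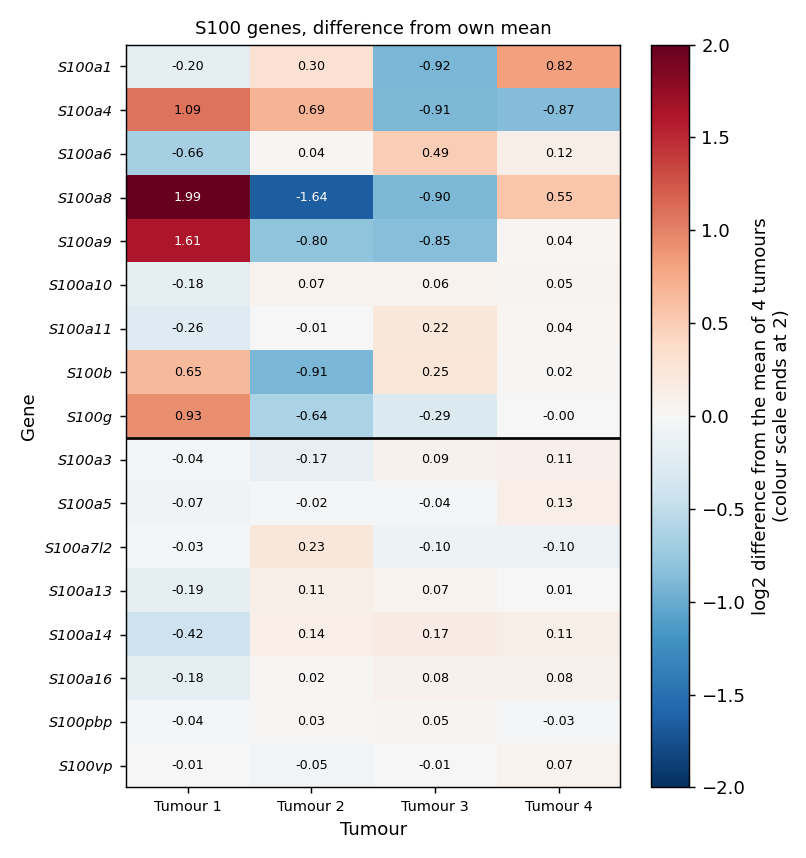
Difference of each S100 gene from its own mean over the 4 tumours (log2, colour and printed value), with the 9 members above the black line and 8 further genes named S100 below it. The widest differences are those of S100a8 and S100a9, followed by S100a4, while genes below the line stay within 0.42 of their mean.

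In the RefSeq annotation of assembly GRCr8, 7 of the 9 members lie on 1 chromosome, and S100a3, S100a4, S100a5 and S100a6 follow one another with no other protein-coding gene starting between them. These neighbours had unlike profiles. S100a4 was highest in tumour 1 with a range of 1.99, S100a6 was lowest there with a range of 1.15, and S100a3 and the dim S100a5 had ranges of 0.27 and 0.20. S100a4 and S100a6 also differed in the motifs of the windows printed above. S100a8 and S100a9, which are neighbours as well, shared their highest and second tumour. S100a10 and S100a11, neighbours too, shared their lowest.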

How the data were processed

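The deposited table holds array intensities on a linear scale, 1 value per probe set as the authors gave them; software and background correction: not given in the sources used here. A common scaling is visible in them, with a mean of 500.1 on every array after trimming 2% from each end. Per the labels' protocols, 8 µg of total RNA was primed with oligo-dT and labelled with biotin. Of 31099 probe sets, 20826 named 1 gene in the platform annotation, 436 named several and were left out, and 9831 had no entry. The brightest probe set represented a gene. Values were used as deposited, as log2(intensity + 16), with Python 3.11.15 and pandas 2.3.3. With 1 group of 4 and 1 array per tumour no test was run, no detection call was used, and the number of arrays limits precision. No 2 arrays were identical. The members and lists were chosen with earlier results of these data known. Genes named were all members, up to 4 list members of widest spread, and the 3 nearest profiles of each member with a 2-fold range; other list genes shown were chosen after their values were seen. Alternatives were other pseudocounts, scalings, filters and probe-set rules, and leaving out each tumour.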

Additional observations from a re-analysis of the deposited data

Results flagged for a closer look

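Among the 9 members and the 5 other expressed S100 genes, 2 had a single tumour whose gap to its nearest neighbour took up an unusually large part of the range over the 4 tumours. For S100a10 the gap below tumour 1 was 0.927 of the range, with 12.47 in tumour 1 and 12.70 to 12.72 elsewhere. For S100a14 it was 0.904 of the range, with 11.03 in tumour 1 and 11.56 to 11.62 elsewhere. Both exceed Dixon's 95% critical value for 4 samples, and chance flags about 1 in 20 groups. With quantile normalization tumour 1 minus the mean of the others was -0.10 for S100a10 in place of -0.24. Among all expressed genes 5.63% were flagged in this way. Both ranges were under 2-fold.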

How the results depend on the processing

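No paired analysis was possible because there is only 1 group. The count of expressed members with a 4-fold range, 0 as reported, became 1 with a pseudocount of 1 and 1 with quantile normalization, S100a4 in both cases. Without any filter on low values, 7 of the 9 members had a 2-fold range and 2 a 4-fold range. Leaving out each tumour in turn gave 3 to 4 members with a 2-fold range and 0 to 1 with a 4-fold range. The 1 was S100a9, for which only tumour 1 reached the filter level. The median SD then lay between 0.42 and 0.58. The difference of tumour 1 from the mean of the others for S100a1, -0.27 with all tumours, was 0.11 without tumour 4 and as low as -0.77 without tumour 3. Of 234 values for single members under the alternatives, 219 moved by less than the spread between tumours, 14 moved by more without a change of sign, and that of S100a1 was the 1 that turned. The cause of these shifts was not tested. Averaging the probe sets of a gene changed no member, since each has a single probe set. Dim probe sets limit what can be said of S100a8, S100g and, outside tumour 1, S100a9.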
